A study of Mus musculus with 12 samples.

Results

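Mast cells release preformed mediators when their secretory granules fuse with the plasma membrane, and 10 genes of this degranulation and exocytosis machinery are described here: *Snap23*, *Stx4a*, *Vamp7*, *Vamp8*, *Stxbp2*, *Unc13d*, *Rab27a*, *Rab27b*, *Syngr1* and *Exoc3l*. They were chosen by symbol, with earlier results of these data known. All 10 were present among the 16234 genes of the count table and passed the filter on low counts that left 12208 genes. RNA-seq was done on bone marrow-derived mast cells (BMMCs), which are grown from mouse marrow in IL-3 and SCF for 4 to 8 weeks, in 12 libraries that formed 6 groups of 2. The marrow came from C57BL/6N mice, 6 to 12 weeks old and of both sexes, of 3 *Elk4* genotypes by label: wild type (WT, littermates), heterozygous (HZ) and conventional knockout (KO). In each genotype, 1 group was labelled untreated and 1 was stimulated through FcϵRI, with anti-DNP IgE (0.5 µg/ml, overnight) and then the antigen DNP-HSA (100 ng/ml, 1 h). The study's paper gives these doses and times in its qPCR methods, and its RNA-seq methods give none. The sources do not state whether the unstimulated cells also received IgE, nor whether the libraries of a group came from separate mice or cultures. Each p-value sets a difference against the spread between libraries of a group, which may therefore be technical. That spread was estimated over all 6 groups together, with weight from other genes.

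Granule fusion rests on SNARE proteins, in which a vesicle SNARE (VAMP) zips up with a syntaxin and a SNAP protein of the plasma membrane. In mast cells the plasma membrane partners are SNAP23 and syntaxin 4 (*Stx4a*), and VAMP8 is the vesicle SNARE best known for granule release, with VAMP7 as a related one. Munc18-2 (*Stxbp2*) binds the syntaxin, Munc13-4 (*Unc13d*) primes granules, and the small GTPases RAB27A and RAB27B bring granules to the membrane. Synaptogyrin 1 (*Syngr1*) is a membrane protein of vesicles, and *Exoc3l* encodes a relative of a subunit of the exocyst, the complex that tethers vesicles. The study also measured *Syngr1* and *Exoc3l* by qPCR in *Elk4*-deficient BMMCs and reported both as increased. The sources do not state whether these genes were picked from these libraries.

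ELK4, the product of *Elk4*, is a DNA-binding protein of the ETS family, whose members recognise a GGAA core, and it can bind beside the factor SRF, whose site is the CArG box. Promoter windows of 300 bases, from 250 before to 50 after the start of a transcript, were read from RefSeq on GRCm38.p6 for 6 of the 10 genes, in 7 windows. No window was read for *Vamp7*, *Unc13d*, *Rab27b* and *Exoc3l*. The windows of *Syngr1*, *Vamp8* and *Snap23* are shown because these genes were higher than WT in both other genotypes and both states. Capitals mark GGAA, read on either strand (TTCC on the strand shown).
Syngr1, chr15:80091084-80091383, plus strand: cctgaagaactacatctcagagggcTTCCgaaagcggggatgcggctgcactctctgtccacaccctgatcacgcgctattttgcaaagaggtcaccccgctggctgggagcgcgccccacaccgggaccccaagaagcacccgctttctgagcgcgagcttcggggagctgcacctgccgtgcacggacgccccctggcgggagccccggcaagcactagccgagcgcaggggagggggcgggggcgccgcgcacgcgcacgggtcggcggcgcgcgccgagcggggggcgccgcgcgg
Vamp8, chr6:72390618-72390917, minus strand: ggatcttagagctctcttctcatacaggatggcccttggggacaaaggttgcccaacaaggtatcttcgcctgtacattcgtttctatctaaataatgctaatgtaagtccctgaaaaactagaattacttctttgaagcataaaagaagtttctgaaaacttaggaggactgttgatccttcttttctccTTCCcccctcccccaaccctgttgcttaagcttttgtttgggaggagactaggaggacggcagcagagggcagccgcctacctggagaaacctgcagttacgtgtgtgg
Snap23, chr2:120567421-120567720, plus strand: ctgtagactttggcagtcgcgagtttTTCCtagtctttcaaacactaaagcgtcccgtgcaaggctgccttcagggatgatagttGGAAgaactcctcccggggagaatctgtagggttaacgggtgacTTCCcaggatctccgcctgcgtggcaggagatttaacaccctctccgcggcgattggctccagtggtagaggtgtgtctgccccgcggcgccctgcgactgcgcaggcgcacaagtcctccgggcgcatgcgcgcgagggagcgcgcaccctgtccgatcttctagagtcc
The *Syngr1* window held 1 GGAA match, the *Vamp8* window 1 and the *Snap23* window 3, whereas 96.0% of all 32851 promoter windows held at least 1. The longer ETS motif CCGGAAGT, which contains GGAA, was found on neither strand in any of the 7 windows, against 3.89% of all windows. The CArG box was likewise in none of the 7, against 1.63% of all windows. The E-box CACGTG, which reads the same on both strands, was in the *Stxbp2* window at positions -14 to -9 and in 1 of 2 *Rab27a* windows at positions -246 to -241, counting the start as 0. Of all windows, 7.15% held an E-box. These matches describe the letters only.

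Counts on genes totalled 29697958 to 35531667 per library, and the biological coefficient of variation between replicates was 4.01%. Levels are given as CPM scaled by edgeR's TMM factors, or as deposited FPKM where genes of different length are compared. The 10 mast cell markers in the table, *Kit* and *Fcer1a* among them, summed to 34237 to 46486 FPKM in every library. Neutrophil markers summed to at most 0.207 FPKM and lymphocyte markers to at most 0.0625 FPKM, eosinophil markers to at most 1.19 and dendritic cell markers to at most 1.95 FPKM. Basophil markers summed to 69.6 to 108 FPKM, mostly *Cd200r3*, and platelet markers to 406 to 761 FPKM, from *Itga2b*, with at most 4 counts of *Pf4*. The 7 macrophage markers summed to 40.3 to 42.9 FPKM in unstimulated WT, 42.0 to 43.8 in HZ and 61.4 to 66.2 in KO, and to 41.7 to 42.2, 54.4 to 55.8 and 57.1 to 62.0 after stimulation. Within that list *Csf1r* and *Mrc1* had at most 23 and 1 counts, *Cd14* 9 to 145, *Adgre1* 98 to 209, *Lyz2* 131 to 432, *Cd68* 670 to 1859 and *F13a1* 18 to 2217. Reads on *Elk4* did not follow the labels, with 73.2 and 78.3 CPM in unstimulated WT, 93.2 and 86.0 in HZ, with 69.7 and 63.5 in KO, and 78.2 and 67.0, 65.2 and 63.7, and 67.1 and 68.5 after stimulation. Unstimulated KO was below WT by log2 -0.19 (edgeR adjusted p = 0.00872) and below HZ by -0.43 (3.61e-08), but HZ was above WT by 0.24 (0.000484). Stimulated KO against WT did not pass, at -0.10 (edgeR adjusted p = 0.208). The study reported the deletion at the protein level, by western blot of WT, HZ and KO BMMCs. A count over the whole gene does not show a deletion within it, and WT, HZ and KO below stand for libraries labelled so.

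Per unit of transcript length, *Vamp8* was the most abundant of the 10 genes, with a median of 136 FPKM over the 12 libraries. It was followed by *Snap23* at 90.4, *Stxbp2* at 78.7, *Rab27b* at 68.7, *Unc13d* at 45.5, *Stx4a* at 43.1, *Vamp7* at 13.1, *Rab27a* at 9.08, *Syngr1* at 6.32 and *Exoc3l* at 3.67 FPKM. *Rab27b* and *Unc13d*, *Stx4a* and *Vamp7*, and *Vamp7* and *Rab27a* were neighbours whose ranges over the libraries did not overlap. The other neighbours overlapped in range, but *Vamp8* stood above *Snap23*, and *Snap23* above *Stxbp2*, within 12 of 12 libraries. *Stxbp2* stood above *Rab27b* in 11 libraries and *Unc13d* above *Stx4a* in 9. *Syngr1* did not keep a place in this order: *Rab27a* was above it in 8 of 12 libraries, and it was above *Exoc3l* in 8 of 12.

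**Figure D1:**
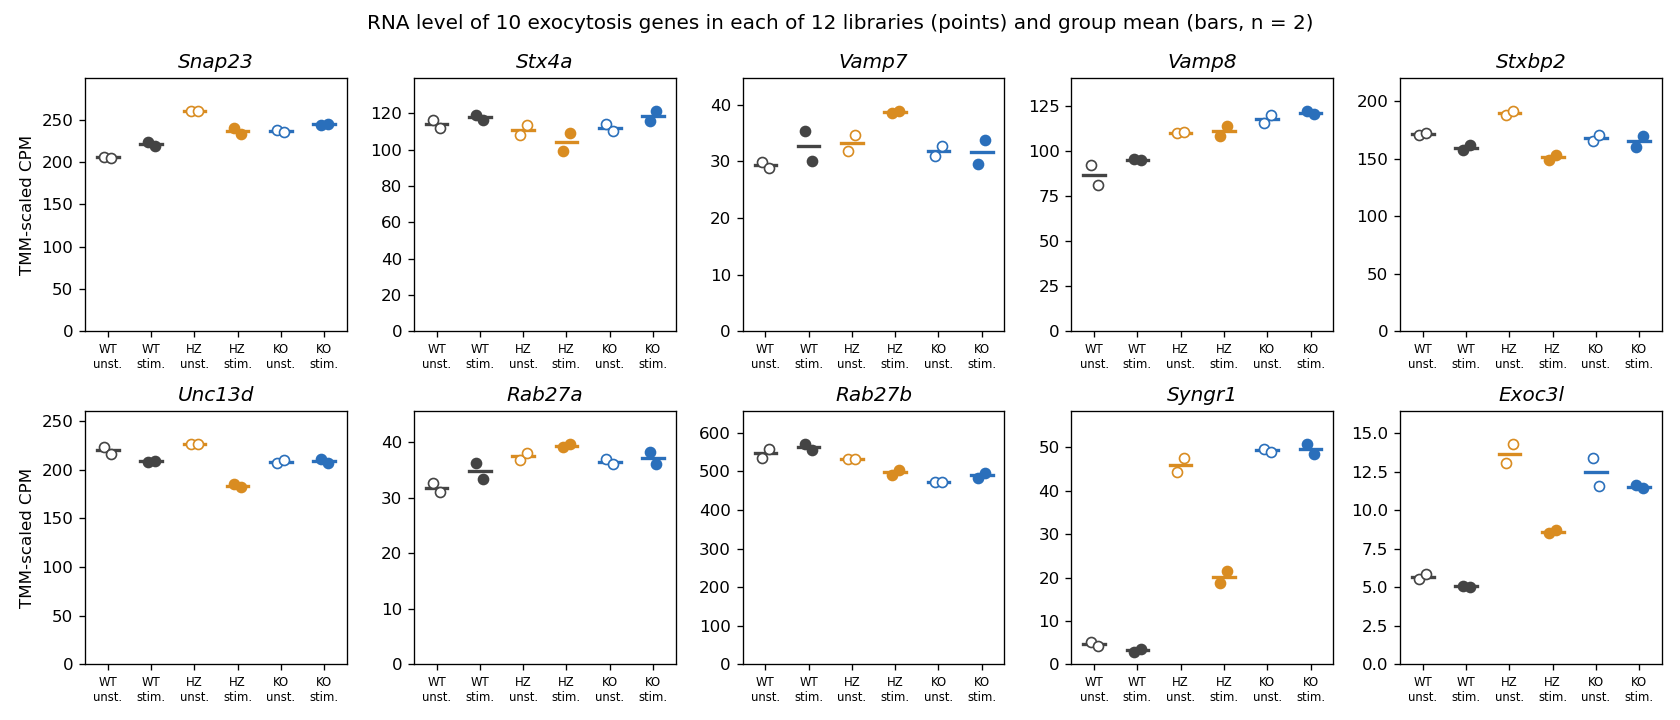
TMM-scaled CPM (vertical axes, from 0) of each of the 10 genes in the 6 groups, with 1 point for each library, open when unstimulated and filled when stimulated, and a bar at the mean of 2. *Syngr1* lay between 2.93 and 5.25 CPM in the 4 WT libraries and between 18.8 and 50.7 CPM in the other 8.

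*Syngr1* showed the widest range of the 10 genes. In unstimulated libraries its level was 5.25 and 4.26 CPM in WT (174 and 149 counts), 44.3 and 47.5 CPM in HZ and 49.7 and 48.9 CPM in KO. After stimulation it was 2.93 and 3.49 CPM in WT (87 and 104 counts), 18.8 and 21.5 CPM in HZ and 50.7 and 48.4 CPM in KO. Every HZ and KO library was thus far above every WT library, and stimulated HZ stood between WT and KO. Unstimulated KO exceeded unstimulated WT 10.4-fold, a log2 fold change of 3.38 (SE 0.101, edgeR quasi-likelihood test, Benjamini-Hochberg adjusted p = 8.93e-31, n = 2 against 2). Unstimulated HZ exceeded WT 9.67-fold (log2 3.27, SE 0.102, edgeR adjusted p = 2.56e-30). Of the 12208 genes tested, 67 rose more than *Syngr1* in unstimulated KO against WT and 70 in unstimulated HZ against WT. In these bulk libraries, a change in the number of cells that hold a transcript and a change in RNA per cell cannot be told apart. Among the macrophage markers, *F13a1*, named after its values were seen, moved with *Syngr1*: it averaged 1.33 CPM in unstimulated WT, 56.6 in HZ and 59.2 in KO, and 0.656, 24.6 and 58.0 after stimulation. *Lyz2* was also higher than WT in each of these 4 comparisons, by log2 0.63 to 1.35. Over the macrophage markers tested, the median log2 fold change against WT was 0.16 in KO and -0.07 in HZ before stimulation. After it, the medians were 0.48 and 0.39. Of 6 macrophage markers tested, 2 were higher and 0 lower in unstimulated KO against WT (all genes 22.9% and 21.7%). In unstimulated HZ, 3 were higher and 1 lower (25.4% and 26.0%). After stimulation 3 were higher and 0 lower in KO (21.2% and 19.2%), and 3 and 1 in HZ (18.4% and 16.5%). The part of these markers in the *Syngr1* differences was not tested.

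The KO and HZ levels of *Syngr1* did not pass the test of a difference before stimulation, at a log2 difference of 0.10 (95% confidence interval -0.05 to 0.26, edgeR adjusted p = 0.300). After stimulation KO exceeded HZ 2.46-fold (log2 1.30, SE 0.0849, edgeR adjusted p = 5.12e-17). Stimulated KO exceeded stimulated WT 15.4-fold (log2 3.95, SE 0.112) and stimulated HZ exceeded it 6.26-fold (log2 2.65, SE 0.121), with edgeR adjusted p of 8.92e-32 and 2.63e-23. On stimulation *Syngr1* fell by 1.19 on the log2 scale in HZ (SE 0.0844, edgeR adjusted p = 5.21e-17). It fell by 0.56 in WT (SE 0.149, edgeR adjusted p = 0.00159), and in KO the log2 change was 0.01 (95% confidence interval -0.15 to 0.17, edgeR adjusted p = 0.952). Scaling by library totals in place of TMM moved the KO value to -0.28, which passed (edgeR adjusted p = 0.00153). The median of all genes in KO was then -0.30, and the falls of *Syngr1* in WT and HZ were kept. The fall in WT lost its call without replicate 1 of unstimulated WT (log2 -0.41, edgeR adjusted p = 0.0675) or replicate 1 of stimulated WT (-0.44, 0.0505).

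The responses of *Syngr1* differed between genotypes when the difference itself was tested. The log2 response of KO exceeded that of WT by 0.57 (SE 0.168, edgeR adjusted p = 0.0217), and that of HZ was below WT, at a difference of -0.63 (SE 0.174, edgeR adjusted p = 0.00309). The KO difference lost its call without any of 4 libraries: replicate 1 of unstimulated WT (0.41, edgeR adjusted p = 0.215), replicate 1 of stimulated WT (0.45, 0.182), replicate 2 of unstimulated KO (0.56, 0.0543) or replicate 1 of stimulated KO (0.54, 0.0637). On log2(FPKM + 1) with limma it was 0.13 (adjusted p = 0.541). The HZ difference lost its call without replicate 2 of stimulated WT (-0.49, edgeR adjusted p = 0.0732).

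By median FPKM over the libraries *Exoc3l* was the least abundant of the genes, although *Syngr1* was lower in every WT library. *Exoc3l* also separated the genotypes. In unstimulated libraries it stood at 5.52 and 5.86 CPM in WT, 13.04 and 14.28 CPM in HZ and 13.4 and 11.6 CPM in KO. Stimulated libraries held 5.08 and 5.04 CPM in WT, 8.56 and 8.69 CPM in HZ and 11.6 and 11.4 CPM in KO. No HZ or KO library overlapped with a WT library, and in HZ the stimulated libraries were lower than the unstimulated ones. *Exoc3l* was 2.19-fold higher in unstimulated KO than WT (log2 1.13, SE 0.137, edgeR adjusted p = 1.77e-09) and 2.40-fold higher in unstimulated HZ (log2 1.26, SE 0.137, edgeR adjusted p = 6.44e-11). In stimulated libraries the excess over WT was 2.28-fold in KO (log2 1.19, SE 0.145) and 1.70-fold in HZ (log2 0.77, SE 0.147), with edgeR adjusted p of 2.30e-09 and 3.69e-05. These 4 differences also passed when any single library of the groups compared was left out.

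The stimulated level of *Exoc3l* was 1.34-fold higher in KO than in HZ (log2 0.42, SE 0.136, edgeR adjusted p = 0.0176), a call lost without any of the 4 libraries compared, at log2 0.41 to 0.43 and edgeR adjusted p of 0.0658 to 0.0895. On stimulation *Exoc3l* fell by 0.66 in HZ (SE 0.132, edgeR adjusted p = 2.43e-05). Its log2 changes in WT and KO were -0.17 (95% confidence interval -0.48 to 0.14) and -0.11 (-0.37 to 0.15) and did not pass. With library totals they were -0.48 and -0.40 and passed. The response of HZ was below that of WT by a log2 difference of -0.49 (SE 0.202, edgeR adjusted p = 0.0489). That call was lost without any of 7 of the 8 libraries behind it, all but replicate 1 of unstimulated HZ, with values of -0.55 to -0.43 and edgeR adjusted p of 0.0611 to 0.137, and with DESeq2 (-0.51, adjusted p = 0.0532) or library totals (-0.42, 0.0992).

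*Vamp8*, the vesicle SNARE, was higher outside WT by a smaller factor. It stood at 92.5 and 81.3 CPM in unstimulated WT, 110.1 and 110.6 in HZ, against 116 and 120.4 in KO. In stimulated libraries it was 95.54 and 94.99 CPM in WT, 109 and 114 in HZ, with 122 and 121 in KO. The WT libraries were the lowest in either state, and HZ and KO overlapped with none of them. *Vamp8* exceeded unstimulated WT by log2 0.44 in KO (1.36-fold, SE 0.0481, edgeR adjusted p = 8.79e-11) and by 0.35 in HZ (1.27-fold, SE 0.0485, edgeR adjusted p = 4.29e-08). After stimulation the excess was 0.35 in KO (SE 0.0489, edgeR adjusted p = 6.41e-08) and 0.22 in HZ (SE 0.0489, edgeR adjusted p = 0.000255). These 4 differences also passed with any single library left out. Stimulated KO against HZ passed at log2 0.13 (SE 0.0482, edgeR adjusted p = 0.0487), but without any of the 4 libraries it did not, at 0.09 to 0.16 and edgeR adjusted p of 0.0506 to 0.343, nor with DESeq2 (0.13, adjusted p = 0.0601). *Vamp7*, its less abundant relative, stood at 29.8 and 28.8 CPM in unstimulated WT, 31.8 and 34.6 in HZ, against 30.9 and 32.7 in KO. None of the *Vamp7* genotype differences passed before stimulation. In stimulated libraries *Vamp7* was 35.3 and 30.0 CPM in WT, 38.5 and 38.8 in HZ, with 29.5 and 33.8 in KO. Stimulated HZ was higher than WT by log2 0.24 (SE 0.0806, edgeR adjusted p = 0.0157) and KO was lower than HZ by -0.29 (SE 0.0811, edgeR adjusted p = 0.00601). The first call was lost without replicate 1 or 2 of stimulated HZ (0.25 and 0.24, edgeR adjusted p = 0.0527 and 0.0672) or replicate 2 of stimulated WT (0.13, 0.331), or with DESeq2 (0.22, 0.0548), and the other without replicate 1 of stimulated KO (-0.19, 0.181). The FPKM ratio of *Vamp8* to *Vamp7* was 10.1 and 9.19 in unstimulated WT, 11.3 and 10.4 in HZ, against 12.2 and 11.99 in KO. After stimulation it was 8.81 and 10.3 in WT, against 9.19 and 9.58 for HZ and 13.5 and 11.6 for KO, and no test was run on it.

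*Snap23*, the plasma membrane SNARE, was at 206 and 204 CPM in unstimulated WT, 259.6 and 259.7 in HZ, with 237 and 235 in KO. Its stimulated level was 223 and 219 CPM in WT, 240.1 and 233 in HZ, against 244 and 245 in KO. WT was again lowest in each state, and unstimulated HZ was highest. *Snap23* rose above unstimulated WT by log2 0.34 in HZ (1.26-fold, SE 0.0333, edgeR adjusted p = 3.62e-12) and 0.20 in KO (1.15-fold, SE 0.0333, edgeR adjusted p = 1.63e-06). In stimulated libraries it was higher by 0.15 in KO (SE 0.0337, edgeR adjusted p = 0.000343) and 0.10 in HZ (SE 0.0336, edgeR adjusted p = 0.0183). The stimulated HZ call was lost without replicate 1 of stimulated HZ (0.078, edgeR adjusted p = 0.168) or replicate 2 of stimulated WT (0.087, 0.124), and with DESeq2 (0.077, adjusted p = 0.0652). *Stx4a*, the syntaxin, was at 117 and 112 CPM in unstimulated WT, 108 and 114 in HZ, with 114 and 110.3 in KO, so that the 3 genotypes overlapped. In stimulated libraries it was at 119 and 116 CPM in WT, 99.4 and 109 in HZ, against 116 and 121 in KO. *Stx4a* in KO did not pass against WT in either state, at log2 -0.03 (95% confidence interval -0.12 to 0.07) and 0.01 (-0.09 to 0.10). Stimulated HZ was lower than WT by -0.18 (SE 0.0470, edgeR adjusted p = 0.00234) and KO was higher than HZ by 0.18 (SE 0.0471, edgeR adjusted p = 0.00224). Both calls were lost without replicate 1 of stimulated HZ (-0.11 and 0.12, edgeR adjusted p = 0.147 and 0.153), and the latter also without replicate 2 of stimulated KO (0.15, 0.0725).

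*Stxbp2* and *Unc13d*, the regulators whose loss is known to impair granule release in immune cells, did not pass between WT and KO in either state, although for unstimulated *Unc13d* this depended on the setting. *Stxbp2* was at 171 and 172 CPM in unstimulated WT, 188 and 191 in HZ, with 165 and 170.3 in KO. *Unc13d* was at 223 and 216 CPM in unstimulated WT, 226 in each HZ library and 206 and 209.7 in KO. HZ was the highest genotype for each gene before stimulation. *Stxbp2* was higher in HZ than WT by log2 0.15 (SE 0.0379, edgeR adjusted p = 0.00119) and lower in KO than HZ by -0.18 (SE 0.0378, edgeR adjusted p = 0.000131). *Unc13d* was lower in KO than HZ by -0.12 (SE 0.0341, edgeR adjusted p = 0.00351), but HZ against WT did not pass, at 0.04 (95% confidence interval -0.03 to 0.11). Against WT, unstimulated KO gave -0.03 for *Stxbp2* (95% confidence interval -0.11 to 0.05) and -0.08 for *Unc13d* (-0.15 to -0.01, edgeR adjusted p = 0.0561), and neither passed. The *Unc13d* difference passed under 8 of the 11 other settings that kept every library, among them DESeq2 (-0.09, adjusted p = 0.0201) and library totals in edgeR (-0.10, 0.0132). With any of the 4 libraries left out it did not pass.

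After stimulation HZ had the lowest level of each regulator. *Stxbp2* was at 158 and 162 CPM in WT, 149 and 153 in HZ, against 160.1 and 170.1 in KO. *Unc13d* was at 208 and 209 CPM in WT, 185 and 182 in HZ, with 211 and 207 in KO. Stimulated HZ was lower than WT in *Unc13d* by log2 -0.19 (SE 0.0349, edgeR adjusted p = 2.82e-05) and in *Stxbp2* by -0.08 (95% confidence interval -0.16 to 0.00), which did not pass. Stimulated KO against WT gave 0.05 in *Stxbp2* (-0.03 to 0.13) and 0.00 in *Unc13d* (-0.07 to 0.07). KO exceeded HZ by 0.19 in *Unc13d* (SE 0.0350, edgeR adjusted p = 3.27e-05). In *Stxbp2* it exceeded HZ by 0.13 (SE 0.0389, edgeR adjusted p = 0.0123), a call lost without replicate 1 of stimulated HZ (0.10, edgeR adjusted p = 0.138) or replicate 2 of stimulated KO (0.081, 0.289), and with library totals (0.097, 0.0611).

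*Rab27b*, the more abundant of the 2 RAB27 genes, was lower in unstimulated KO than WT, whereas *Rab27a* was higher. *Rab27b* was at 536 and 559 CPM in unstimulated WT, 532 and 531 in HZ, against 473 and 471 in KO. Its stimulated level was 570.1 and 556 CPM in WT, 492 and 503 in HZ, with 483 and 497 in KO. KO was below WT in each state, and stimulated HZ was below it too. The log2 difference of *Rab27b* between KO and WT was -0.21 before stimulation (SE 0.0285, edgeR adjusted p = 2.20e-08) and -0.20 after it (SE 0.0287, edgeR adjusted p = 1.06e-07). Stimulated HZ was below WT by -0.18 (SE 0.0287, edgeR adjusted p = 1.52e-06), and unstimulated KO was below HZ by -0.17 (SE 0.0285, edgeR adjusted p = 2.22e-06). The unstimulated HZ value of -0.04 (95% confidence interval -0.10 to 0.02) did not pass, but at -0.09 it did with library totals.

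*Rab27a* was at 32.5 and 31.0 CPM in unstimulated WT, 36.8 and 38.0 in HZ, against 36.9 and 36.0 in KO. In stimulated libraries it was at 36.3 and 33.4 CPM in WT, 39.1 and 39.5 in HZ, with 38.1 and 36.0 in KO. The unstimulated groups did not overlap with WT, and *Rab27a* was higher by log2 0.24 in HZ (SE 0.0713, edgeR adjusted p = 0.00496) and 0.20 in KO (SE 0.0711, edgeR adjusted p = 0.0199). The HZ call was lost without replicate 2 of unstimulated HZ (0.20, edgeR adjusted p = 0.0547) or of unstimulated WT (0.20, 0.0706), and the KO call without replicate 1 of unstimulated KO (0.18, 0.108) or replicate 2 of unstimulated WT (0.17, 0.142). After stimulation the differences of 0.18 in HZ (edgeR adjusted p = 0.0525) and 0.09 in KO (0.348) did not pass, although the HZ value did without replicate 1 of stimulated WT (0.24, 0.0416) or with library totals (0.20, 0.0237). The FPKM ratio of *Rab27b* to *Rab27a* was 8.73 and 9.54 in unstimulated WT, 7.67 and 7.40 in HZ, against 6.79 and 6.95 in KO. After stimulation the ratio was 8.33 and 8.83 in WT, against 6.67 and 6.74 for HZ and 6.71 and 7.31 for KO. This ratio does not depend on the scaling of a library, and every WT library was above every other one, with no test run on it.

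**Figure D2:**
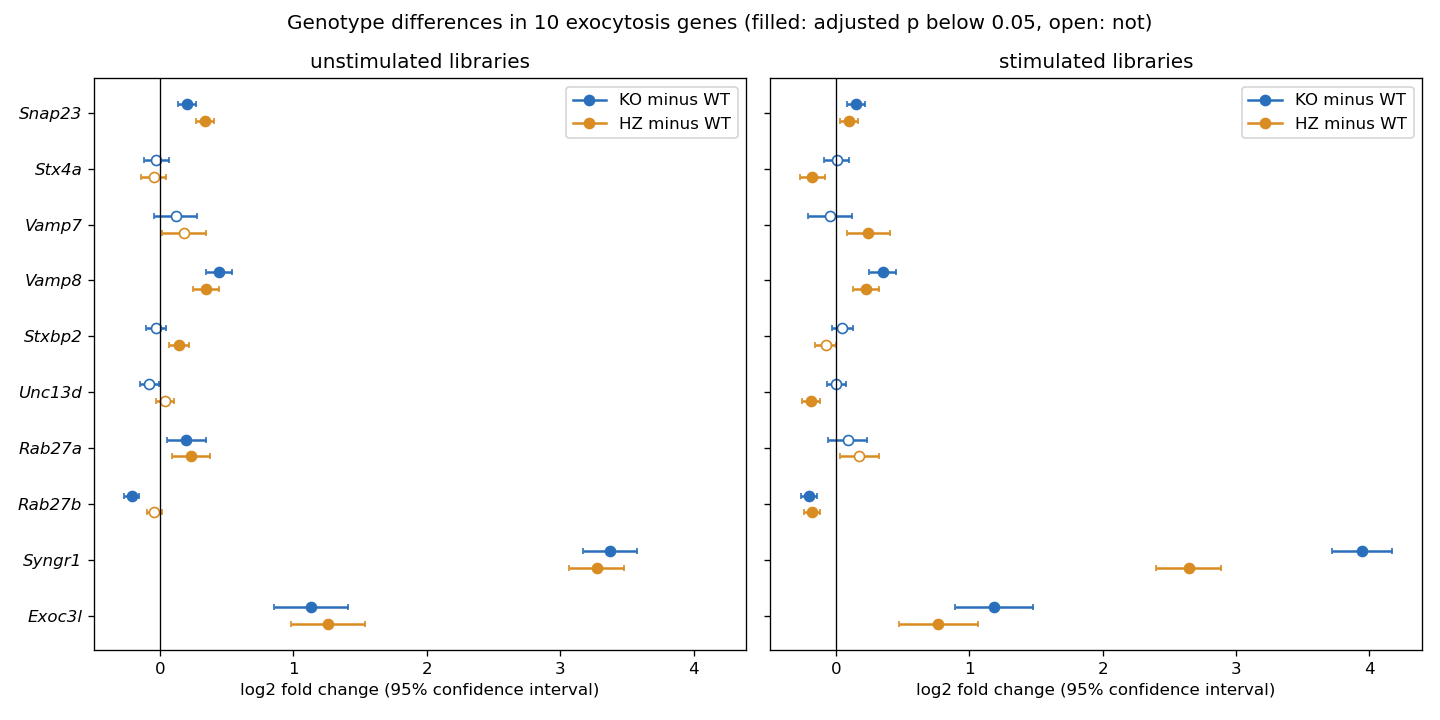
Log2 fold change against WT (horizontal axes, with 95% confidence intervals) of each gene in KO (blue) and HZ (orange), without stimulation on the left and with it on the right. Filled points had an adjusted p below 0.05. *Syngr1* and *Exoc3l* stood to the right of 0 in each comparison, and the point farthest from 0 among the other 8 was *Vamp8* in unstimulated KO, at 0.44.

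Taking the 10 genes as a group, 5 were higher and 1 was lower in unstimulated KO than WT, against 22.9% and 21.7% of all genes tested. The 5 were *Syngr1*, *Exoc3l*, *Vamp8*, *Snap23* and *Rab27a*, the 1 was *Rab27b*, and the median log2 fold change of the 10 was 0.16 against 0.02 for all genes. The study had reported *Syngr1* and *Exoc3l* as increased in *Elk4*-deficient BMMCs, so counts that include them are not independent of that report. In unstimulated HZ against WT, 6 were higher and 0 lower (all genes 25.4% and 26.0%), with a median of 0.21 against 0.00. At an unadjusted p under 0.05 in edgeR 0 of the 10 were lower in that comparison, DESeq2 called 0 lower and limma on FPKM called 1. In unstimulated KO against HZ, 0 were higher and 4 lower (all genes 23.4% and 21.8%), and 1 was higher at an unadjusted p under 0.05, 0 with DESeq2 and 1 with limma. Of the 10 mast cell markers, 6 were higher and 3 lower in unstimulated KO against WT (median 0.10), 7 and 1 in HZ against WT (median 0.21) and 1 and 7 in KO against HZ (median -0.18), and their part in these counts was not tested. These 3 comparisons share libraries.

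In stimulated KO against WT, 4 of the 10 were higher and 1 lower (all genes 21.2% and 19.2%), with a median log2 fold change of 0.07 against 0.02. In stimulated HZ against WT, 5 were higher and 3 lower (all genes 18.4% and 16.5%). The mast cell markers were 4 higher and 5 lower in the first of these and 4 higher and 6 lower in the other. In stimulated KO against HZ, 6 were higher and 1 lower (all genes 12.9% and 12%), and without single libraries 3 to 5 of the 10 passed in that comparison. Of all genes called there, 51.7% were higher with TMM and 40.7% with library totals, under which 4 of the 10 were higher and 1 lower. With the study's fold thresholds added, 2 of the 10 passed in KO against WT, *Syngr1* and *Exoc3l*, both unstimulated (2-fold, all genes 7.51%) and stimulated (1.5-fold up or 0.66-fold down, all genes 12.7%). Those are the genes that the study had reported as increased.

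On stimulation of WT, 2 of the 10 were higher (*Snap23* and *Vamp8*) and 2 lower (*Stxbp2* and *Syngr1*), against 22.4% and 22.9% of all genes. None passed the 2-fold threshold, which 6.77% of all genes did, nor did any pass it at an unadjusted p or with DESeq2 or limma. The log2 changes in WT were 0.10 for *Snap23* (SE 0.0337), 0.13 for *Vamp8* (SE 0.0494) and -0.10 for *Stxbp2* (SE 0.0385), with edgeR adjusted p of 0.00918, 0.0237 and 0.0262. With library totals *Snap23* and *Vamp8* turned to falls, at -0.20 and -0.17. Each of the 3 lost its call without some library: *Snap23* without replicate 1 of stimulated WT (0.092, edgeR adjusted p = 0.0851), *Stxbp2* without that library (-0.084, 0.177) or either unstimulated WT library (-0.11, 0.0704, and -0.084, 0.169), or with DESeq2 (-0.088, 0.0728). *Vamp8* did so without either stimulated WT library (0.13, 0.0890, and 0.14, 0.0754) or replicate 2 of unstimulated WT (0.055, 0.475). Without replicate 1 of stimulated WT, 0 of the 10 passed.

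In HZ, 1 of the 10 rose on stimulation (*Vamp7*) and 6 fell, against 32.9% and 31.6% of all genes. The falls were -0.32 in *Stxbp2* (SE 0.0383, edgeR adjusted p = 3.70e-10), -0.30 in *Unc13d* (SE 0.0346, edgeR adjusted p = 1.86e-10), -0.13 in *Snap23* (SE 0.0332, edgeR adjusted p = 0.000431) and -0.10 in *Rab27b* (SE 0.0286, edgeR adjusted p = 0.00295), beside *Syngr1* and *Exoc3l*. They kept their sign with library totals, which moved the rise of *Vamp7* from 0.22 (SE 0.0796, edgeR adjusted p = 0.0154) to -0.014. *Vamp7* lost its call without replicate 1 of unstimulated HZ (0.16, edgeR adjusted p = 0.160) or replicate 2 of stimulated HZ (0.21, 0.0571), and *Rab27b* without replicate 1 of stimulated HZ (-0.079, 0.0532). In KO, 0 of the 10 rose and 0 fell, against 20.4% and 20.5% of all genes, with log2 changes of -0.11 to 0.08. In KO no gene of the 10 reached an unadjusted p under 0.05 in edgeR, and DESeq2 called 0, whereas limma on FPKM called 10 lower.

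These counts depend on the scaling because the libraries' TMM factors were 1.08 to 1.12 without and 0.902 to 0.924 with stimulation. Under library totals the median log2 change of all genes was -0.32 in WT, -0.24 in HZ and -0.30 in KO. Of the genes called, the share that was higher then moved from 49.4% to 10.2% in WT, from 51.0% to 29.3% in HZ and from 49.9% to 10.5% in KO. Of the 10 genes, 9, 9 and 10 were then lower and 0 higher. Their medians were then -0.27 in WT, -0.35 in HZ and -0.27 in KO.

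**Figure D3:**
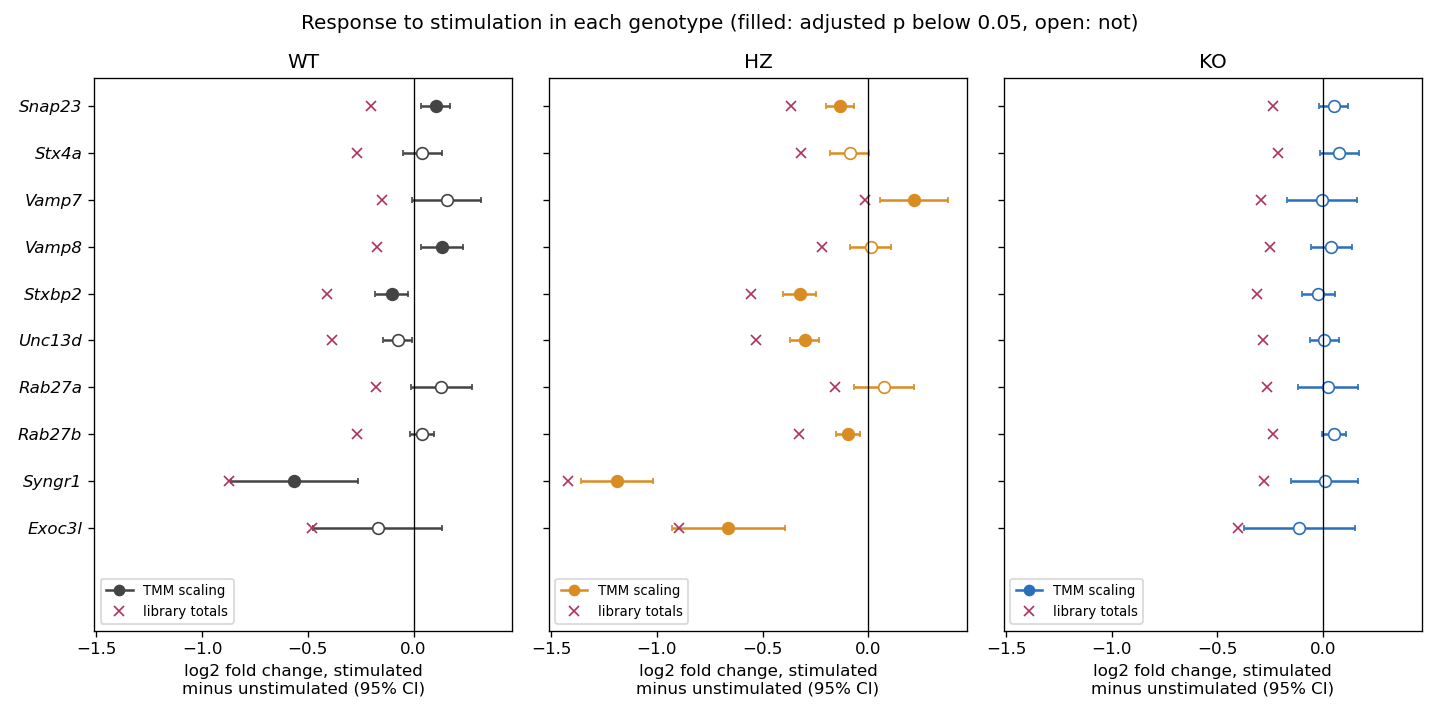
Log2 fold change on stimulation (horizontal axes) of each gene in WT, HZ and KO, as circles with 95% confidence intervals under TMM scaling (filled at an adjusted p below 0.05) and as crosses under library totals. *Syngr1* and *Exoc3l* fell in HZ under either scaling, by 1.19 and 0.66 under TMM, and in KO every circle stood between -0.11 and 0.08 and every cross to the left of 0.

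The difference between responses was tested for each gene. Between KO and WT, *Syngr1* alone of the 10 was called, with 1 higher and 0 lower against 5.44% and 3.83% of all genes. At an unadjusted p under 0.05, and with DESeq2 or limma, 0 were lower. Between HZ and WT, 0 were higher and 6 lower, against 19.9% and 18.6% of all genes, and 0 were higher at an unadjusted p under 0.05 or with DESeq2 or limma. The log2 differences were -0.24 in *Snap23* (SE 0.0473, edgeR adjusted p = 4.74e-05), -0.23 in *Unc13d* (SE 0.0488, edgeR adjusted p = 0.000185), -0.22 in *Stxbp2* (SE 0.0543, edgeR adjusted p = 0.000838) and -0.14 in *Rab27b* (SE 0.0404, edgeR adjusted p = 0.00518), beside *Syngr1* and *Exoc3l*. *Rab27b* lost its call without replicate 1 of unstimulated WT (-0.11, edgeR adjusted p = 0.0548) and with library totals (-0.061, 0.238). Under library totals 4 of the 10 were lower and 0 higher, and the share of calls that was higher over all genes moved from 51.6% to 64.4%. Of the 10 mast cell markers tested, 9 were lower in this same comparison, with a median of -0.31, and their part in the result was not tested.

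A list of 101 other genes of exocytosis and wider membrane traffic, in 14 roles, was set beside these 10, and 83 of them passed the filter on low counts. It is called the exocytosis list, although not all of its genes are particular to exocytosis. In unstimulated KO against WT, 23 of the 83 were higher (27.7%) and 13 lower (15.7%), against 22.9% and 21.7% of all genes tested, with a median log2 fold change of 0.05 against 0.02 for all genes. Among those with at least 100 counts, *Vamp5*, a vesicle SNARE relative, rose by 1.29 (from 3.17 to 7.74 CPM), and *Mlph*, which encodes melanophilin, an effector of RAB27A, by 0.88 (34.7 to 63.9 CPM). *Syt11*, a synaptotagmin, rose by 0.71, *Tnfaip2*, a relative of the exocyst subunit EXOC3, by 0.64, and the priming factor *Unc13b* by 0.56. The largest fall among them was in *Cadps2*, a priming factor for dense core vesicles, from 25.9 to 2.05 CPM (log2 -3.65, SE 0.165, edgeR adjusted p = 7.85e-24). *Sytl2*, a RAB27 effector, fell by 1.20, the calcium sensor *Syt9* by 1.20, the exocyst subunit *Exoc4* by 0.52 and the RAB27 effector *Sytl3* by 0.28.

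These roles hold few genes each and are to be read against the same 22.9% and 21.7% of all genes. The RAB27 effectors held 2 genes higher and 4 lower of 8 tested in unstimulated KO against WT. The SM proteins, the family of *Stxbp2*, held 3 higher and 0 lower of 5, and the exocyst 0 higher and 2 lower of 9. The Rab GTPases held 3 higher and 1 lower of 8. The synaptogyrin relatives held 3 higher and 1 lower of 10, with log2 fold changes of -1.54 to 0.34, below the 3.38 of *Syngr1*. In stimulated KO against WT, 24 of the 83 were higher and 11 lower (all genes 21.2% and 19.2%, the list 28.9% and 13.3%). *Vamp5* was then higher by 1.31, *Mlph* by 1.07, *Unc13a* by 0.98, *Syt11* by 0.77 and *Tnfaip2* by 0.73. *Cadps2* was lower by log2 -4.16 (25.0 against 1.39 CPM), *Syt9* by -1.32, *Sytl2* by -1.27, *Exoc4* by -0.53 and *Sytl1* by -0.43. *Cadps2* was low in HZ as well, at 2.02 and 1.21 CPM without and 1.58 and 1.59 CPM with stimulation.

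**Figure D4:**
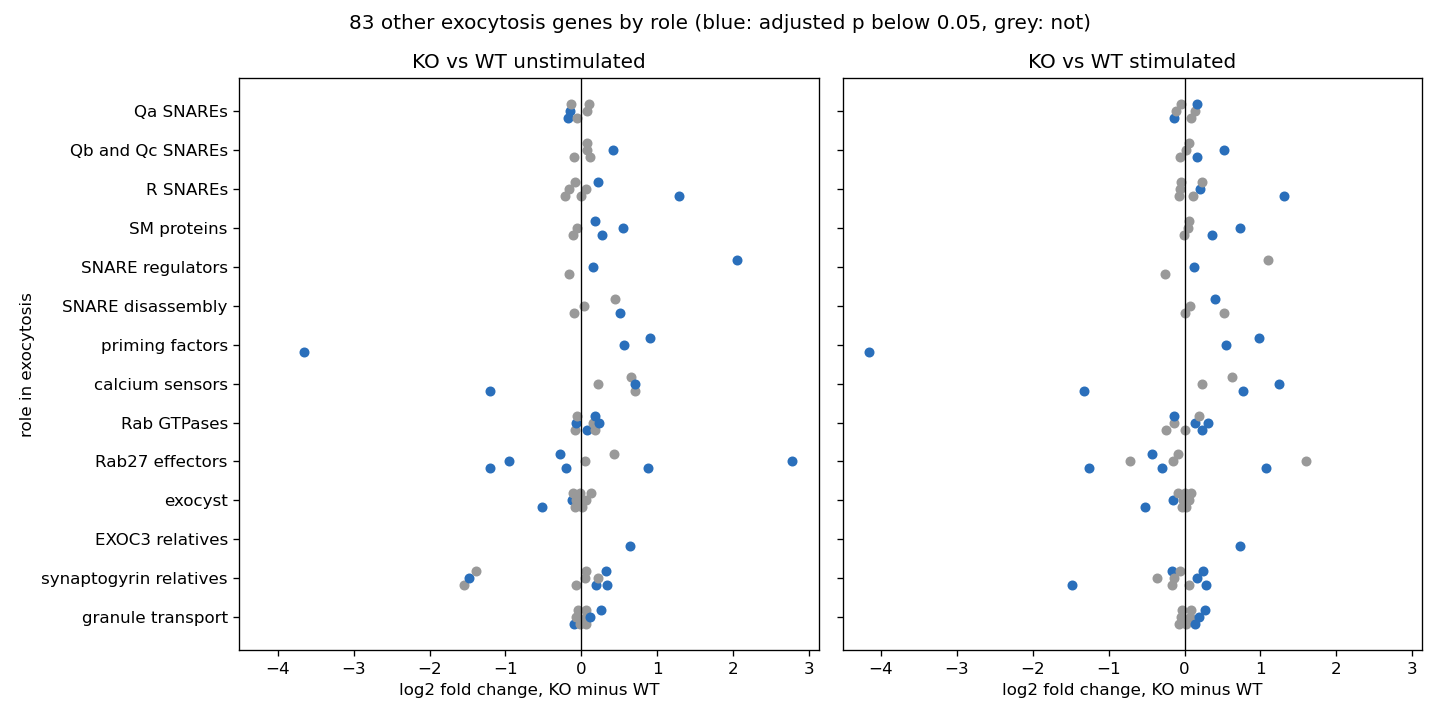
Log2 fold change of KO against WT (horizontal axes) of the 83 genes of the exocytosis list tested, in rows by role, without stimulation on the left and with it on the right. Blue points had an adjusted p below 0.05, and the point farthest to the left is *Cadps2*, at -3.65 and -4.16.

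In unstimulated HZ against WT, 28 of the 83 were higher (33.7%) and 10 lower (12.05%), against 25.4% and 26.0% of all genes. In unstimulated KO against HZ, 8 were higher (9.64%) and 20 lower (24.1%), against 23.4% and 21.8%, and with library totals 13 were higher and 17 lower. In stimulated HZ against WT, 14 were higher (16.9%) and 17 lower (20.5%), against 18.4% and 16.5% of all genes, and 15 and 15 with library totals. In stimulated KO against HZ, 15 were higher (18.1%) and 4 lower (4.82%), against 12.9% and 12% of all genes. On stimulation of WT, 28 rose (33.7%) and 15 fell (18.1%), against 22.4% and 22.9%, and with library totals 5 rose and 49 fell. *Tnfaip2*, an NF-κB target, went from 10.4 to 218 CPM (log2 4.40), and *Rab7* and *Rab3a* rose by 0.74, *Nsf*, which takes SNARE complexes apart, by 0.56 and *Vamp4* by 0.52. *Vamp1* changed by -1.56, the exocyst subunit *Exoc8* by -1.11, *Stxbp3* by -0.58, *Mlph* by -0.46 and *Stx11* by -0.43. On stimulation of HZ 23 rose (27.7%) and 29 fell (34.9%), against 32.9% and 31.6% of all genes, and 9 and 51 with library totals. On stimulation of KO 24 rose (28.9%) and 13 fell (15.7%), against 20.4% and 20.5%, and 6 and 49 with library totals. The response of HZ differed from that of WT in 3 genes that were higher (3.61%) and 20 that were lower (24.1%), against 19.9% and 18.6% of all genes, and in 11 and 13 with library totals. That of KO differed in 4 higher and 0 lower, against 5.44% and 3.83% of all genes. The 20 included the RAB27 effectors *Sytl1* (-1.15), *Sytl3* (-0.74) and *Sytl2* (-0.20), which were named after their values were seen.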

How the data were processed

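Reads of 12 BMMC libraries had been processed by the authors before deposit. The submitters' processing notes name fastp, HISAT2, HTSeq and the build GRCm39, without versions or strand setting. The authors deposited raw counts per gene. A table of FPKM values, scaled by the authors for gene length and library total, was also deposited. From these counts, tests were run by edgeR 4.0.16 in R 4.3.3 (filterByExpr, TMM, quasi-likelihood test, 6 group means in 1 model, prior count 0.125, two-sided p-values, Benjamini-Hochberg adjustment over 12208 genes). A gene passed at an adjusted p below 0.05. Alternatives were DESeq2 1.42.0, other size factors, other low-count filters, the groups compared alone, replicate blocks, limma 3.58.1 on log2(FPKM + 1) or log2(FPKM + 0.1) filtered at an average of 0.5 FPKM or unfiltered, an adjusted p below 0.01, and leaving out each library.

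All 10 genes, the 101-gene exocytosis list and the marker lists were chosen with earlier results of these data known. From the list, up to 5 genes in each direction were named in WT on stimulation and in KO against WT in each state, by size of change, with an adjusted p below 0.05, no overlap between libraries and a mean of at least 100 counts. *Cadm1*, *Vcl*, *Sirt6*, *Mitf* and *Elk4* were named as genes of the study, others after their values were seen. Replicates of a group differed by 2.90 to 5.05 times the sampling noise in chi-square per degree of freedom and were kept as 2. Deviations of libraries with the same number correlated by -0.036 to 0.063 between groups, so the numbers were not taken as pairs. In RefSeq on GRCm38.p6, *Syngr1*, *Rab27b* and *Vamp7* overlap with noncoding genes or a pseudogene, and reads in the overlap cannot be told apart. Coordinates of the other genes were not used here.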

Additional observations from a re-analysis of the deposited data

Results flagged for a closer look

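The response to stimulation differed between genotypes, by a test of the difference itself in edgeR's quasi-likelihood model, in 7 cases. The log2 response of *Syngr1* was higher in KO than WT by 0.57 (adjusted p = 0.0217). In HZ against WT, the log2 response was different by -0.24 in *Snap23* (adjusted p = 4.74e-05), -0.22 in *Stxbp2* (0.000838) and -0.23 in *Unc13d* (0.000185). The same difference was -0.14 in *Rab27b* (adjusted p = 0.00518), -0.63 in *Syngr1* (0.00309) and -0.49 in *Exoc3l* (0.0489). The calls of *Syngr1* in KO and of *Rab27b*, *Syngr1* and *Exoc3l* in HZ were lost without single libraries, as given above. Those of *Syngr1* in KO and of *Rab27b* and *Exoc3l* in HZ were also lost under some other settings. Groups of 2 libraries allow no test for a library that stands apart.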

How the results depend on the processing

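Counts below are genes called of the 10, unless the exocytosis list is named, in edgeR unless another tool is named. The sign of small changes on stimulation turned under library totals, limma on log2(FPKM + 1), with or without a filter, and limma on log2(FPKM + 0.1), all of which scale by library totals. In WT these gave, in that order, -0.20, -0.20 and -0.20 for *Snap23*, -0.17, -0.17 and -0.17 for *Vamp8*, -0.27, -0.26 and -0.27 for *Stx4a*, -0.18, -0.16 and -0.18 for *Rab27a* and -0.27, -0.26 and -0.27 for *Rab27b*. In HZ they gave -0.014, -0.012 and -0.013 for *Vamp7*, -0.22, -0.22 and -0.22 for *Vamp8* and -0.16, -0.14 and -0.16 for *Rab27a*. In KO they gave -0.24, -0.24 and -0.24 for *Snap23*, -0.25, -0.25 and -0.25 for *Vamp8*, -0.21, -0.21 and -0.21 for *Stx4a*, -0.28, -0.28 and -0.28 for *Unc13d*, -0.27, -0.24 and -0.26 for *Rab27a*, -0.24, -0.23 and -0.24 for *Rab27b* and -0.28, -0.26 and -0.28 for *Syngr1*. The count on stimulation was then 9 in WT and 10 in KO under each of them. With only the groups compared it was 1 in KO. At an adjusted p below 0.01 it was 2 for stimulation of WT, 4 for stimulated KO against HZ and 0 for the KO response against WT, and of the list 18 for unstimulated KO against HZ and 13 for the HZ response against WT. Limma on log2(FPKM + 1), filtered or not, passed 1 of the 10 with the fold threshold in unstimulated KO against WT, and all 3 limma fits called 0 for the KO response against WT. Without a filter limma also called 3 of the 10 in stimulated KO against HZ, 2 of the list for the KO response and 12 for the HZ response, and *Elk4* in unstimulated KO against WT was -0.20 (limma adjusted p = 0.0947). With single libraries left out, the count ranged over 0 to 4 for stimulation of WT, 5 to 9 for stimulated HZ against WT, 3 to 5 for stimulated KO against HZ and 0 to 1 for the KO response against WT. Of the list it ranged over 17 to 24 for unstimulated KO against HZ, 12 to 14 for stimulated KO against HZ and 2 to 4 for the KO response, and *Elk4* over -0.25 to -0.12. Apart from the scaling by library totals, described above, the cause of these changes was not tested. A replicate block, which rests on the replicate numbers of the labels, gave 6 of the 10 in unstimulated KO against WT, and with the block over all groups or within genotype 5 in place of 6 for the HZ response against WT, where *Exoc3l* was lost (adjusted p = 0.0518 and 0.0572). Whether a number marks a shared mouse is not stated. Deviations of same-numbered libraries from their group means correlated by at most 0.063 between groups. Over the settings that kept every library, KO and HZ against WT kept the direction and call of *Syngr1*, *Exoc3l* and *Vamp8* in both states. With 2 libraries a group and 4.01% variation between replicates, small differences can be missed. A difference that did not pass may be of any size within its interval.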

Other observations

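*Cadm1* and *Vcl*, an adhesion molecule and the actin-linking protein vinculin, were named by the study with *Syngr1* and *Exoc3l* for degranulation. *Cadm1* averaged 39.6 CPM in unstimulated WT, 107 in HZ and 62.2 in KO, and 40.4, 80.0 and 59.0 after stimulation. Unlike *Syngr1*, it was lower in unstimulated KO than HZ, by a log2 difference of -0.79 (edgeR adjusted p = 9.99e-17). *Vcl* averaged 180.2 CPM in unstimulated WT, 298 in HZ and 295 in KO, and 219, 269 and 324 after stimulation. The response of HZ was below that of WT by -0.45 in *Cadm1* and -0.43 in *Vcl* (edgeR adjusted p = 1.37e-05 and 1.12e-09). *Mitf* in unstimulated KO was below WT by -0.12 (edgeR adjusted p = 0.0156), and *Sirt6* gave -0.05 (0.790).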
